A study of Rattus norvegicus with 6 samples.

Results

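Long unspliced NONCODE lncRNAs are annotated long noncoding RNAs that carry an identifier of the NONCODE database (NONRATT), whose annotated length equals the stretch of genome from their start to their end, so that the annotation gives them no intron, and that are at least 2000 nt long. This rule was met by 621 of the 17967 NONCODE lncRNAs in the tables (3.46%), and the tables list 18649 lncRNAs in all, the other 682 under Ensembl identifiers. Identifier, position and length chose these members, and their expression was not used. The samples were INS-1 cells, a rat insulinoma line (strain Wistar) that releases insulin and stands in for pancreatic beta cells in culture work. As a tumour line it divides in culture, unlike most beta cells of an islet. The control group (Con, n = 3) was kept in the usual medium of these cells, which itself contains glucose. The HG/PA group (n = 3) was exposed to 25 mM glucose and 0.5 mM palmitate, a saturated fatty acid, for 24 h. The glucose of the control medium is lower and is given below with the processing. The groups thus differ in glucose and palmitate together. Total RNA was sequenced from paired-end, strand-specific libraries, and the comparison asks which lncRNAs differ after exposure to high glucose with palmitate. The study describes its replicates as biological, while the labels do not say how separate the cultures of a group were, and p-values measure the spread between these samples.

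Unspliced lncRNAs are transcribed from a single block of sequence, and many arise at enhancers, opposite to other genes, inside introns or just past the end of a neighbouring gene. Since no splice junction marks their reads, their level rests on reads inside the annotated block alone. High glucose with palmitate, called glucolipotoxicity, is known in beta cells for stress of the endoplasmic reticulum, oxidative stress and cell death. The tables pair no member with a gene name and hold no protein-coding or marker genes, so no function is given for single members, and the identity of the cells was not checked against beta cell markers.

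The tables give FPKM, which is the number of fragments on a transcript relative to its length and to the size of the library. In each sample 100% of the products of FPKM and length were multiples of the same unit (tolerance 0.1 of it), which is the worth of 1 fragment, and all fragments given here were recovered in this way. Totals implied by that unit are 13770879, 12491547 and 12529011 fragments for Con 1, 2 and 3, and 12656956, 13688835 and 13187359 for HG/PA 1, 2 and 3, and whether FPKM was divided by them is not known. A member of 2000 nt needs an FPKM of 0.109 to 0.120, depending on the sample, to hold 3 fragments, the number taken here as the floor of detection. Between 595 and 607 members were above 0 in a sample, 576 were above 0 in all 6 samples and 0 were at 0 in all 6. Fragments cover counting error only.

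The members were between 2000 and 57691 nt long, with a median of 2472 nt and quartiles of 2225 and 2910 nt. Of the 621, 489 were under 3000 nt, 124 were from 3000 to under 5000 nt, 7 were from 5000 to under 10000 nt and 1 was longer. They lay on 21 chromosomes, from 12 on chromosome 12 to 60 on chromosome 1. Just inside the length limit, NONRATT011026.2 (2000 nt) held 267, 261 and 283 fragments in Con against 264, 273 and 292 in HG/PA. Just outside it, NONRATT020039.2 (1999 nt) held 438, 426 and 450 fragments in Con against 443, 496 and 469 in HG/PA.

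Across members, mean FPKM (of the 6 samples) had quartiles of 1.20 and 13.5 around a median of 3.86. The same median was 1.64 for the 7902 unspliced NONCODE lncRNAs under 2000 nt, 1.31 for the 9110 spliced ones under 2000 nt and 2.93 for the 334 spliced ones of at least 2000 nt. On the FPKM scale, which corrects for length, 198 members had a mean above 10, 6 had a mean above 100 and 143 had a mean below 1. The members also hold more fragments each, with a median of 136 on average per sample against 11.7 for all other NONCODE lncRNAs. They are both longer (median of 2472 against 642.5 nt) and higher in FPKM (median of 3.86 against 1.47) than those. At least 30 fragments on average were held by 487 members.

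Members make up 11.7% of the summed length of the NONCODE lncRNAs. They held 32.2%, 31.5% and 28.1% of the NONCODE fragments in Con 1, 2 and 3 and 31.2%, 28.8% and 32.7% in HG/PA 1, 2 and 3. The groups overlap, and the lowest values are those of Con 3 and HG/PA 2. A single member, NONRATT003468.2, held 32.5%, 31.5% and 16.7% of the members' fragments in Con against 29.2%, 16.9% and 30.5% in HG/PA, lowest in the same samples. Without it the members' share was 24.3%, 23.98% and 24.5% in Con and 24.3%, 25.2% and 25.2% in HG/PA, so that the samples lay closer together and the groups still overlapped. The 50 members with the highest mean FPKM held between 53.3% and 65.3% of the members' fragments in a sample.

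**Figure D1:**
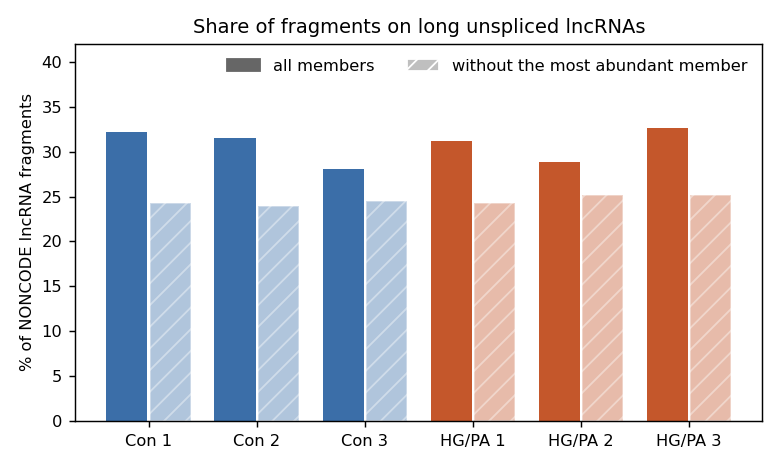
Bars give the share of all fragments on NONCODE lncRNAs that fell on long unspliced members in each sample, with all members (solid) and without NONRATT003468.2 (hatched), for Con (blue) and HG/PA (orange), 1 library per bar. With all members the shares run from 28.1% to 32.7%, with Con 3 and HG/PA 2 lowest, and without that member from 23.98% to 25.2%.

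HG/PA was compared with Con by limma, a linear model that shares the estimate of spread across rows, on log2(FPKM + 0.1), over rows that reached an FPKM of 0.1 in 3 or more of the 6 samples. Because 0.1 is added before the logarithm, the fold changes given here understate those of members with low FPKM. Of the 621 members, 579 passed this filter and 42 did not, and 17558 rows of the tables passed in all. A row was called where its fold change was at least 2 and its Benjamini-Hochberg adjusted p, over all rows tested, was below 0.05. Under this rule 7 members rose (1.21% of those tested, against 0.655% of all rows tested) and 7 fell (1.21%, against 0.832%). With the same fold change and an unadjusted p below 0.05, 15 members were higher (2.59% of those tested, against 2.59% of all rows tested) and 20 were lower (3.45%, against 3.9%), at or below the background. At an adjusted p below 0.05 with any fold change, limma gave 20 members higher (3.45% of those tested, against 1.05% of all rows tested) and 27 lower (4.66%, against 1.72%). Without a trend in limma's variance these were 4 (0.691%, against 0.524%) and 5 (0.864%, against 0.478%). limma-voom on the fragments, scaled to the sum of the listed fragments, gave 37 (6.39%, against 1.09%) and 22 (3.80%, against 0.934%). Scaled to the implied totals it gave 28 (4.84%, against 0.940%) and 32 (5.53%, against 1.54%), so the split by direction differs with the scaling.

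These shares were also taken by depth, in the fit with the trend. With at least 300 fragments on average, 15.8% of the 209 members tested had an adjusted p below 0.05 in limma at any fold change, against 24.6% of the 248 short unspliced NONCODE lncRNAs, 16.0% of the 119 short spliced ones and 8.24% of the 85 long spliced ones. From 100 to under 300 fragments the shares were 6.08%, 9.12%, 6.90% and 2.38% in the same order, and from 30 to under 100 they were 3.97%, 4.31%, 3.78% and 2.33%. With the fold change of at least 2 required as well, 2.39% of members were called from 300 fragments, 2.70% from 100 to under 300 and 3.97% from 30 to under 100, against 4.44%, 2.53% and 2.44% of short unspliced, 0.840%, 1.67% and 2.50% of short spliced and 2.35%, 1.19% and 2.33% of long spliced lncRNAs. The members called were 5, 4 and 5, and nothing particular to the members is read from these shares. All 14 called members held at least 30 fragments on average. Of the 96 members tested below that depth limma called 0, and 5 of them passed the same fold change with an unadjusted p below 0.05, while limma-voom on the fragments called 1. Of the other NONCODE lncRNAs tested, limma called 0.854% under 10 fragments and 1.34% from 10 to under 30. At the unadjusted p the shares were 7.78% and 5.89%, against 0% and 7.46% of members, and nothing particular to the members is read from these.

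The median log2 fold change was -0.016 over the members tested, -0.12 over the other NONCODE lncRNAs tested and -0.11 over all rows tested. Its quartiles over members were -0.30 and 0.24, and the median size of the change was 0.27 for members and 0.36 for all rows tested. With samples rescaled by a median-of-ratios factor (the median over rows of a sample's ratio to the geometric mean), the median of all rows became 0.0081 and that of the members 0.11, and limma called 9 members higher and 5 lower. Over all 17558 rows tested limma called 136 higher and 90 lower with that factor, against 115 and 146 without it. The even split between rises and falls of members therefore depends on the scaling, as the split over all rows does. Directions of small changes can turn with it. Relative to the median of all rows tested, each log2 fold change given here is larger by 0.11 in the direction of HG/PA.

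**Figure D2:**
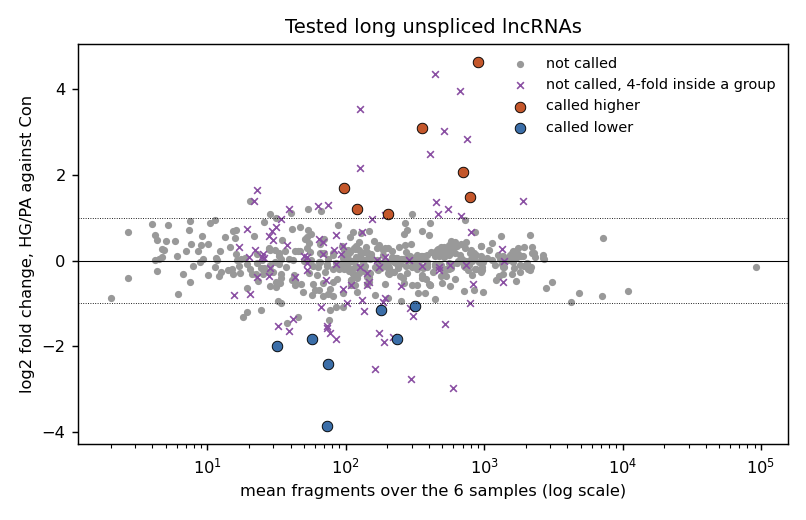
Each point is a tested member, with its mean number of fragments over the 6 samples on a log axis and its log2 fold change from limma on the vertical axis. Dotted lines mark a fold change of 2. The 7 members called higher (orange) and 7 called lower (blue) lie among other members with large fold changes that were not called, many of which (crosses) differed at least 4-fold between samples of the same group.

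The largest rise was that of NONRATT016013.2 (chr2:29056219-29059633 in Rnor_6.0, 3415 nt). It held 148, 54 and 32 fragments in Con 1, 2 and 3 and 1567, 1830 and 1820 in HG/PA 1, 2 and 3. Every HG/PA sample was far above every Con sample, while the Con samples differed among themselves by larger ratios than the HG/PA samples did. Mean FPKM was 1.72 ± 1.26 (SD, n = 3) in Con and 38.6 ± 2.13 in HG/PA, a log2 fold change of 4.64 ± 0.45 (SE) with a Benjamini-Hochberg adjusted p of 0.0066 in limma.

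NONRATT028831.2 (chr8:92935475-92937966, 2492 nt) held 131, 26 and 93 fragments in Con against 706, 563 and 629 in HG/PA. The groups were apart, and Con 2 was lower than the other Con samples. Mean FPKM was 2.54 ± 1.54 in Con and 19.3 ± 2.94 in HG/PA, and the log2 fold change was 3.10 ± 0.51 with an adjusted p of 0.0339 in limma. Without Con 2 the call was kept and the log2 fold change was 2.47, so the size of the rise rests in part on that sample, and without any other sample the call was lost, with an adjusted p of up to 0.114.

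NONRATT021337.2 (chr4:64865710-64868509, 2800 nt) held 311, 235 and 252 fragments in Con against 1060, 1201 and 1188 in HG/PA. Samples of a group were close to each other and the groups were far apart. Mean FPKM was 7.32 ± 0.684 in Con and 31.1 ± 1.14 in HG/PA, a log2 fold change of 2.08 ± 0.10 with an adjusted p of 0.00162 in limma. NONRATT013846.2 (chr18:56516065-56518066, 2002 nt) held 434, 369 and 426 fragments in Con against 1042, 1252 and 1252 in HG/PA, again with little spread inside the groups. Its mean FPKM was 15.8 ± 1.12 in Con and 44.7 ± 3.25 in HG/PA, and its log2 fold change was 1.49 ± 0.09 with an adjusted p of 0.00225 in limma. These rises are of members with at least 235 fragments in every sample, and they were called whichever sample was left out, as was that of NONRATT016013.2.

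The other 3 rises were of members with fewer fragments. NONRATT013305.2 (chr18:25967819-25970279, 2461 nt) held 53, 35 and 44 fragments in Con against 141, 146 and 165 in HG/PA, so the groups were apart. Its log2 fold change was 1.69 ± 0.20 with an adjusted p of 0.0124 in limma, and the call was lost without HG/PA 1, 2 or 3 (adjusted p of up to 0.0597). NONRATT015425.2 (chr2:187899548-187902544, 2997 nt) held 66, 67 and 76 fragments in Con against 132, 196 and 182 in HG/PA. All HG/PA samples were higher, and HG/PA 1 was nearest to Con. The log2 fold change was 1.20 ± 0.20 with an adjusted p of 0.0376 in limma, and the call was lost whichever sample was left out (adjusted p from 0.0665 to 0.126). NONRATT020851.2 (chr4:140915893-140918654, 2762 nt) held 148, 107 and 125 fragments in Con against 304, 317 and 214 in HG/PA, with HG/PA 3 nearest to Con. Its log2 fold change of 1.08 ± 0.20 had an adjusted p of 0.0436 in limma, and the call was kept only without HG/PA 3.

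The largest fall was that of NONRATT025508.2 (chr7:11117653-11119940, 2288 nt). It held 167, 138 and 111 fragments in Con 1, 2 and 3 and 11, 3 and 8 in HG/PA 1, 2 and 3. It was well covered in each Con sample and close to the floor of 3 fragments in each HG/PA sample. Mean FPKM was 4.67 ± 0.728 in Con and 0.247 ± 0.143 in HG/PA, a log2 fold change of -3.86 ± 0.39 with an adjusted p of 0.00731 in limma. NONRATT015685.2 (chr2:209850252-209852471, 2220 nt) held 120, 113 and 149 fragments in Con against 17, 28 and 22 in HG/PA, and its groups were as clearly apart. Its mean FPKM was 4.45 ± 0.787 in Con and 0.759 ± 0.158 in HG/PA, with a log2 fold change of -2.41 ± 0.25 and an adjusted p of 0.00801 in limma. Both falls were called whichever sample was left out.

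NONRATT023334.2 (chr5:92862229-92865113, 2885 nt) held 93, 93 and 88 fragments in Con against 22, 22 and 26 in HG/PA. The samples of each group differed by no more than counting noise would give. Its log2 fold change was -1.84 ± 0.23 with an adjusted p of 0.0155 in limma. NONRATT008660.2 (chr13:42215715-42217719, 2005 nt) was the called member with the fewest fragments, with 63, 45 and 47 in Con and 8, 10 and 17 in HG/PA. The groups did not overlap, and the log2 fold change was -1.99 ± 0.33 with an adjusted p of 0.033 in limma. Both calls were lost without any sample other than HG/PA 3, with an adjusted p of up to 0.0744 for NONRATT023334.2 and 0.122 for NONRATT008660.2.

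The remaining falls were of members with more fragments. NONRATT028664.2 (chr8:67006582-67009620, 3039 nt) held 398, 347 and 345 fragments in Con against 93, 66 and 167 in HG/PA. Con samples were alike and HG/PA samples were lower but spread, with HG/PA 3 highest. The log2 fold change in limma was -1.83 ± 0.32 with an adjusted p of 0.0405, and without any sample other than HG/PA 3 the call was lost (adjusted p of up to 0.136). NONRATT018400.2 (chr3:92670322-92674698, 4377 nt) held 259, 228 and 264 fragments in Con against 113, 104 and 116 in HG/PA, with little spread inside the groups. Its log2 fold change was -1.16 ± 0.17 with an adjusted p of 0.0233 in limma, and the call was lost whichever sample was left out (adjusted p from 0.0698 to 0.0892). NONRATT000954.2 (chr1:157271417-157274230, 2814 nt) held 401, 437 and 431 fragments in Con against 178, 237 and 208 in HG/PA, so the groups were apart. The log2 fold change in limma was -1.05 ± 0.14 with an adjusted p of 0.0159, and the call was kept without Con 1 and lost without any other sample. The calls of NONRATT028664.2 and NONRATT000954.2 were also lost with median-of-ratios or quantile scaling, and that of NONRATT000954.2 with limma-voom on the fragments. With 1 in place of 0.1 added to FPKM, NONRATT018400.2, NONRATT000954.2, NONRATT020851.2 and NONRATT015425.2 were no longer called, and the log2 fold changes of NONRATT016013.2, NONRATT025508.2, NONRATT015685.2, NONRATT023334.2 and NONRATT008660.2 were nearer to 0, at 3.96, -2.18, -1.63, -1.10 and -1.05. Without a trend in limma's variance, NONRATT028664.2, NONRATT000954.2, NONRATT020851.2, NONRATT015425.2 and NONRATT028831.2 were no longer called.

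**Figure D3:**
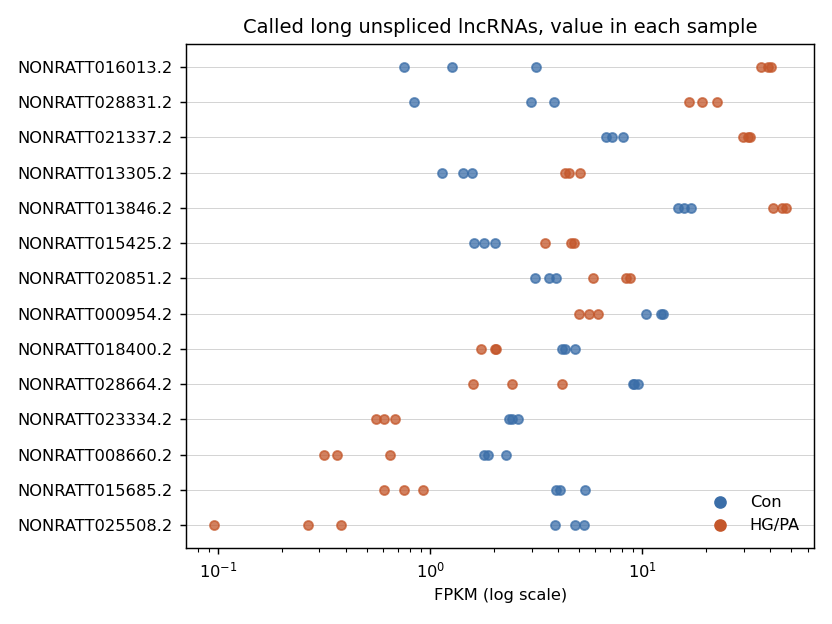
FPKM on a log axis of the 14 called members in each Con (blue) and HG/PA (orange) sample, 1 point per sample, ordered by log2 fold change. In no member do the groups overlap, and the Con samples of NONRATT016013.2 and NONRATT028831.2 and the HG/PA samples of NONRATT025508.2 are the most spread.

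None of the 14 called members overlaps another listed row, while 71 of the 621 members (11.4%) do. Among all rows listed the share with an overlap was 30.4%. Of the overlapping members 27 lie wholly inside the span of a spliced lncRNA. The tables give no strand, so fragments of rows that overlap cannot be assigned with assurance. Another 98 members do not overlap a row but have a listed row within 500 bp, and 452 have none that near. Members rarely stand next to each other, with 15 pairs of members no more than 10000 bp apart and no longer run.

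The 5 members with the highest mean FPKM include 4 with small, tight differences between the groups. NONRATT005732.2 (chr10:67049297-67051672, 2376 nt) held 9352, 8559 and 8973 fragments in Con against 5255, 5203 and 5062 in HG/PA. Mean FPKM was 292 ± 8.37 in Con and 165 ± 8.11 in HG/PA, and the log2 fold change was -0.82 ± 0.05 with an adjusted p of 0.00225 in limma. The fall was thus short of 2-fold although the spread inside the groups was small.

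NONRATT012014.2 (chr16:54455038-54457355, 2318 nt) held 6514, 6112 and 5510 fragments in Con against 3432, 3830 and 3673 in HG/PA, all lower than in Con. Its log2 fold change was -0.76 ± 0.05 with an adjusted p of 0.00361 in limma. NONRATT003473.2 (chr1:221200983-221204272, 3290 nt) held 14354, 12277 and 13880 fragments in Con against 8255, 8282 and 8452 in HG/PA, again with the groups well apart. The log2 fold change in limma was -0.72 ± 0.06 with an adjusted p of 0.00436. NONRATT004576.2 (chr10:63390219-63393335, 3117 nt) was the member of these 5 that was higher in HG/PA, with 6252, 5543 and 5796 fragments in Con against 8053, 9034 and 8611 in HG/PA. Its mean FPKM was 145 ± 3.03 in Con and 208 ± 3.91 in HG/PA, a log2 fold change of 0.52 ± 0.04 with an adjusted p of 0.00436 in limma. Such changes below 2-fold made up 33 of the 47 members with an adjusted p below 0.05, 13 of them higher and 20 lower in HG/PA. Over all rows tested, 185 higher and 302 lower had an adjusted p below 0.05 in limma, and 115 and 146 of these reached 2-fold. Without a trend in its variance limma gave NONRATT005732.2, NONRATT012014.2, NONRATT003473.2 and NONRATT004576.2 an adjusted p of 0.0878, 0.107, 0.114 and 0.189, and the 9 members that kept an adjusted p below 0.05 were all calls of at least 2-fold. limma-voom on the fragments, which models spread by depth in another way, gave the same 4 members 0.00395, 0.00133, 0.00841 and 0.00187. In it 28 of the 33 changes below 2-fold kept an adjusted p below 0.05. That fit is also scaled to the listed fragments, and with limma-voom on the implied totals all 33 kept it.

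The most abundant member, NONRATT003468.2 (chr1:221156368-221158798, 2431 nt), behaved otherwise. It held 129964, 111351 and 50822 fragments in Con 1, 2 and 3 and 95717, 54169 and 112648 in HG/PA 1, 2 and 3. Con 3 and HG/PA 2 had about the same low level and the other 4 samples were between 95717 and 129964, so the split runs across the groups. Mean FPKM was 3073 ± 1221 in Con and 2751 ± 993 in HG/PA, and the log2 fold change of -0.14 ± 0.40 had an adjusted p of 0.898 in limma. It overlaps 2 short spliced rows, NONRATT003469.2 with 29 to 101 fragments and NONRATT003470.2 with 0 to 64, far below its own.

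The longest member, NONRATT026286.2 (chr7:139490612-139548302, 57691 nt), held 204, 171 and 240 fragments in Con against 193, 200 and 205 in HG/PA. Over its length this is an FPKM of 0.237 to 0.332, with the groups overlapping and a log2 fold change of -0.043 ± 0.30 (adjusted p of 0.969 in limma). The next longest, NONRATT031072.2 (chrX:74324613-74331978, 7366 nt), held 71 fragments in Con 3, 39 in HG/PA 2 and 0 in the other 4 samples. NONRATT009434.2 (chr14:74417861-74423831, 5971 nt) held 10, 4 and 5 fragments in Con against 5, 4 and 4 in HG/PA. Neither of these 2 passed the filter for the test. The 8 members of at least 5000 nt thus include some of the least covered, and 4 of them were tested.

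Many members differed widely between samples of the same group. As an index of spread, the squared deviations of fragments from their expectation within each group were divided by that expectation, summed and divided by 4 degrees of freedom, so that counting noise alone gives 1. For members with 30 to under 100 fragments on average the median index was 5.66, against 1.34 for short unspliced, 1.71 for short spliced and 9.96 for long spliced NONCODE lncRNAs of the same depth. From 100 to under 300 fragments the medians were 4.92, 1.55, 2.52 and 6.92, and from 300 fragments they were 2.92, 2.25, 4.49 and 8.13. The index was thus high in both long classes at 30 to 300 fragments, and in the members its median was lower in each deeper class from 30 fragments up.

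A difference inside a group was counted as large where the highest of its 3 samples had at least 30 fragments and at least 4 times the lowest. This was so for 105 of the 621 members (16.9%) and for 4.01% of the other NONCODE lncRNAs. By depth the share of members was 23.6% from 30 to under 100 fragments, 18.7% from 100 to under 300 and 12.9% from 300, against 6.68%, 7.58% and 4.03% for short unspliced and 32.6%, 17.9% and 16.5% for long spliced lncRNAs. For short spliced ones it was 7.89%, 6.69% and 8.40%. From 10 to under 30 fragments it was 28.6% of members, 4.87% of short unspliced, 7.19% of short spliced and 25.6% of long spliced lncRNAs. The large difference lay in Con alone for 45 members, in HG/PA alone for 32 and in both groups for 28. Among the 73 members with a large difference inside Con, Con 1, 2 and 3 were highest in 27, 21 and 25 and lowest, ties counted for each sample, in 23, 29 and 28, and among the 60 inside HG/PA, HG/PA 1, 2 and 3 were highest in 13, 33 and 14 and lowest in 30, 16 and 21.

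In several members the samples fell on 2 levels that cut across the groups. NONRATT001683.2 (chr1:251488140-251490990), with the largest index of spread of these 105 members, held 3256, 269 and 302 fragments in Con against 395, 3396 and 3764 in HG/PA. Con 1, HG/PA 2 and HG/PA 3 were high and the other 3 samples low, with nothing between. NONRATT005243.2 (chr10:13446371-13449873) held 1068, 28 and 1166 fragments in Con against 1155, 1006 and 25 in HG/PA, so 1 sample of each group was low. NONRATT019678.2 held 2294, 70 and 1889 fragments in Con against 1920, 28 and 1955 in HG/PA, again with 1 low sample in each group, here Con 2 and HG/PA 2. NONRATT000490.2 held 23, 5 and 1013 fragments in Con against 997, 966 and 1026 in HG/PA, where Con 3 had the level of the HG/PA samples.

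Some of these members were listed at 0 in part of the samples. At least 1 sample at 0 and at least 1 with 30 or more fragments was found for 17 of the 621 members and for 191 of the other NONCODE lncRNAs, and 13 of the 17 overlap no other row. Of the rows whose highest sample reaches 30 fragments these were 3.20% of 532 members and 3.01% of 6349 others. By mean depth the shares were 8.89% and 8.26% under 30 fragments, 3.94% and 1.34% from 30 to under 100, 3.33% and 1.298% from 100 to under 300 and 1.43% and 1.33% from 300, on 4, 5, 5 and 3 members. In the same order of depth they were 28.6%, 4.65%, 4.76% and 1.18% for long spliced lncRNAs. For short unspliced ones they were 5.25%, 0.513%, 0.673% and 1.21%. NONRATT026978.2 (chr7:101135718-101138208) held 0, 0 and 1646 fragments in Con against 0, 794 and 0 in HG/PA, and the nearest listed row is 1173104 bp away. NONRATT016192.2 (chr2:60311300-60313984) held 2093, 0 and 2127 fragments in Con against 1860, 2323 and 0 in HG/PA, and the spliced row that it overlaps, NONRATT016190.2, held between 35 and 64. In both, samples at 0 stand beside samples of the same group with 794 fragments or more. NONRATT006689.2 (chr11:79192603-79196009) held 352, 0 and 0 fragments in Con against 352, 0 and 0 in HG/PA, at 0 in the same 4 samples in which its neighbour NONRATT006688.2 was highest (211, 186, 274 and 245 fragments, against 108 in Con 1 and 125 in HG/PA 1). A value of 0 in these tables may be a failed estimate and is given only as listed. These members were picked after their values were seen, and why their levels differ between samples of a group was not tested.

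**Figure D4:**
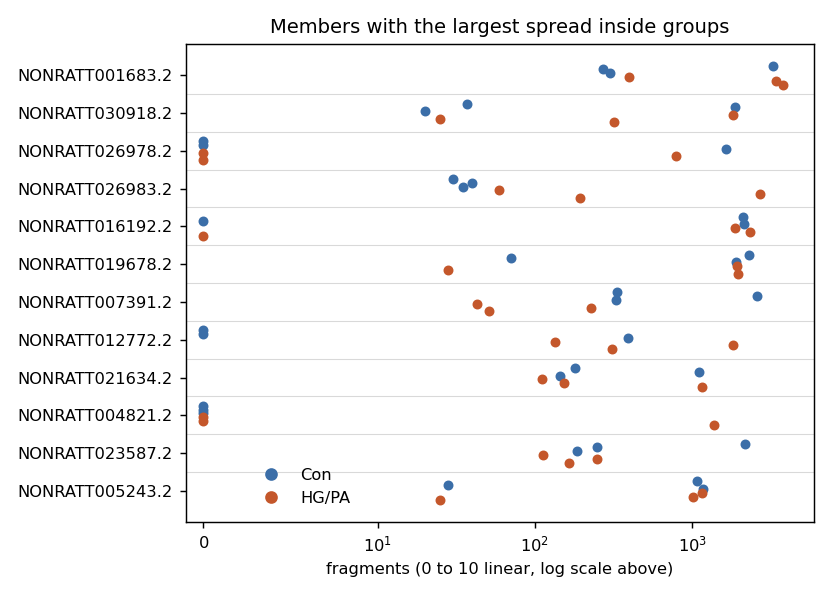
Fragments in each Con (blue) and HG/PA (orange) sample, 1 point per sample, for the 12 members with the largest index of spread among those with a large difference inside a group. The axis is linear from 0 to 10 and logarithmic above, and the low and high levels of a member each hold samples of both groups in several of them, as in NONRATT001683.2, NONRATT016192.2 and NONRATT005243.2.

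Large differences were more frequent beside another listed row. Among members with at least 30 fragments on average they were found in 29 of the 75 that have a row within 500 bp without overlap (38.7%), in 47 of the 352 with no row that near (13.4%) and in 9 of the 60 that overlap a row (15.0%). For short unspliced NONCODE lncRNAs of that depth the shares were 22.8%, 4.77% and 5.77%, and for long spliced ones, of which 21 rows were near another, they were 28.6%, 17.3% and 25.4%. Nearness without overlap thus went with the highest share in each of these classes, and in long spliced lncRNAs overlap did so nearly as much. A share remained in members that have no listed row within 500 bp. Short spliced lncRNAs were not split in this way.

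In a few of these members the neighbour was low in the samples in which the member was high. NONRATT021634.2 (chr4:124032507-124035147) held 181, 1101 and 145 fragments in Con against 111, 153 and 1149 in HG/PA, while NONRATT021635.2, 105 bp away, held 635, 0 and 632 and 523, 614 and 0. The neighbour was at 0 in exactly the samples, Con 2 and HG/PA 3, in which the member was high. NONRATT009016.2 (chr13:95076873-95079607) held 60, 792 and 810 fragments in Con against 46, 856 and 825 in HG/PA, while NONRATT009015.2, 78 bp away, held 184, 13 and 13 and 187, 10 and 11. Con 1 and HG/PA 1 were low for the member and high for the neighbour. NONRATT004821.2 (chr10:85333669-85337115) was listed at 0 in every sample except HG/PA 3, where it held 1368 fragments, and its neighbour NONRATT004822.2, 145 bp away, held 120, 122 and 117 in Con and 99, 98 and 12 in HG/PA. The sample in which the member appears is the sample in which the neighbour drops.

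For NONRATT008369.2 and NONRATT008370.2, both members and 54 bp apart, no such exchange was seen in every sample. The former held 0, 23 and 0 fragments in Con against 23, 687 and 28 in HG/PA, and the latter 449, 19 and 434 in Con and 18, 32 and 29 in HG/PA. Con 2, HG/PA 1 and HG/PA 3 were low for both. Of the 33 members with a large difference and a row within 500 bp without overlap, 24 have a neighbour that reaches 30 fragments. Relative to the implied totals, the member's highest sample was the neighbour's lowest in 7 of the 24 with ties counted and in 4 without, and the neighbour's highest in 2. Each pair has 6 samples, and 1 in 6 of the 24 is 4. The count without ties leaves out pairs whose neighbour is equally low in 2 samples, such as NONRATT021635.2 (0 in Con 2 and HG/PA 3). No general exchange is read from these counts, and whether there is one was not tested. The 3 pairs above were picked after their values were seen. How fragments were divided between neighbouring rows was not tested, and the tables do not show it.

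**Figure D5:**
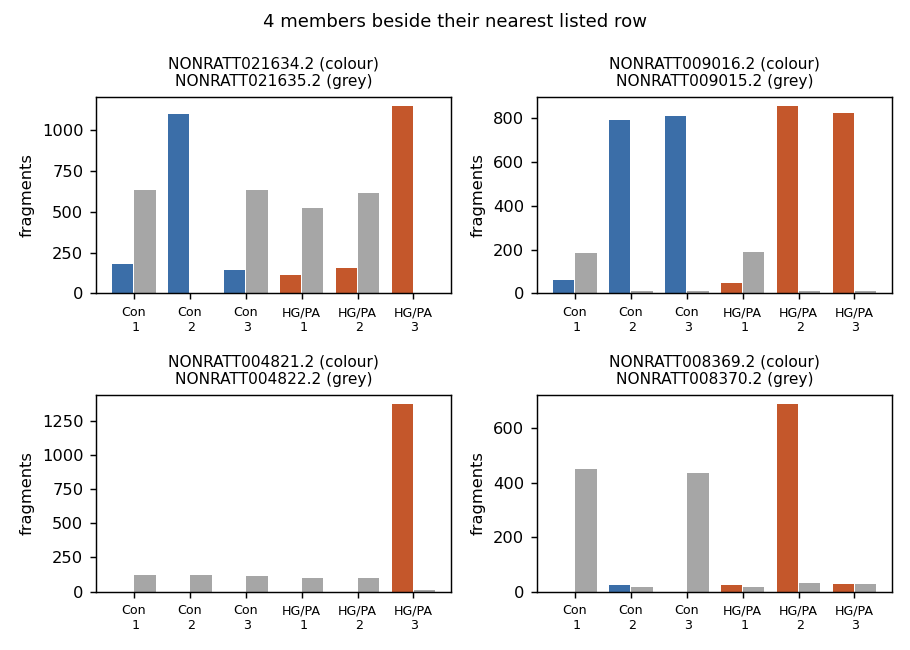
Fragments in each sample of 4 members (blue for Con, orange for HG/PA) and of the nearest listed row (grey), on linear axes from 0. In the first 3 pairs the neighbour is low where the member is high, and in the pair of NONRATT008369.2 and NONRATT008370.2 both are low in 3 samples.

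Of the 105 members with a large difference inside a group, 98 were tested, and 39 of these had a fold change of at least 2, against 29 of the 481 other members tested. limma called 2 of the 98. Since these members were selected for spread inside a group, nothing is read from these counts. The 2 called are NONRATT016013.2 and NONRATT028831.2, the 2 largest rises among called members, in which the Con samples differ at least 4-fold. The other 12 calls, 5 rises and 7 falls, are of members without a large difference inside a group. Whether the 2 rises belong with the members whose samples fall on 2 levels was not tested, and 3 samples a group cannot tell them apart. The row next to NONRATT016013.2, NONRATT016014.2, 105 bp away, held 84, 109 and 90 fragments in Con against 46, 88 and 112 in HG/PA, so it did not drop in the HG/PA samples as a group. The listed row nearest to NONRATT028831.2 is 385190 bp away.

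Of the 15 pairs of neighbouring members, the first 3 by chromosome (in text order) and start are given here. NONRATT001653.2 (chr1:247136728-247139120) held 674, 483 and 671 fragments in Con against 523, 538 and 564 in HG/PA, while NONRATT003696.2 (chr1:247142598-247144974) held 155, 130 and 99 in Con and 104, 44 and 43 in HG/PA. The groups overlapped in both, with log2 fold changes of -0.18 ± 0.13 and -1.10 ± 0.38 and adjusted p of 0.548 and 0.21 in limma. NONRATT006980.2 and NONRATT006981.2 on chromosome 11 held 4 fragments or fewer in every sample and were not tested. The third pair is NONRATT006689.2 and NONRATT006688.2, of which the latter, in limma, differed by 0.30 ± 0.37 on the log2 scale with an adjusted p of 0.738 and the former did not pass the filter.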

How the data were processed

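INS-1 cells were cultured by the authors at 11.1 mM glucose (Con) or at 25 mM glucose with palmitate at 0.5 mM during 24 h (HG/PA), doses taken from the methods. Reads were mapped to Rnor_6.0 with HISAT2, and the FPKM values of annotated lncRNAs, as StringTie gave them, were deposited by the authors, 1 table per sample. The tables state no strand and no totals, and whether FPKM was divided by the implied totals is not known. Fragments were recovered as whole multiples of each sample's step in FPKM times length.

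limma 3.58.1 in R 4.3.3 (lmFit, eBayes with a trend) was fitted to log2(FPKM + 0.1) over all rows passing the filter. The code was also run on simulated fragments that had the same dispersion in every row. That run lacks the large differences inside groups seen here, so nothing on the calls is read from it. The authors used edgeR. Here limma on log2 FPKM was the main test, since FPKM is a normalized unit. Other steps used Python 3.11.15, numpy 2.4.6, pandas 2.3.3 and matplotlib 3.10.9.

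Members named are the 6 largest rises and falls among calls with separated groups, the 5 with the highest mean FPKM, the 3 longest, the 3 rises and 3 falls with most fragments among calls, and the ends of the first 3 runs of members. NONRATT020851.2, members named for their spread, and neighbours were chosen after their values were seen. Members and lists were chosen with earlier results of these data known.

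As alternatives, the pseudocount was 0.01 or 1, the filter was dropped or set to an FPKM of 1, samples were scaled by median-of-ratios factors or quantiles, the trend was dropped, a replicate block was added, limma-voom was run on fragments, and each sample was left out. Others were a fold change of 1.5, and members of at least 3000 or 5000 nt, without overlap or with at least 30 fragments. Chosen after the data were seen were limma-voom on the implied totals and leaving out members with a 4-fold difference inside a group. The gene and promoter tables at hand are of another assembly and match no NONRATT identifier, so no sequence is printed.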

Additional observations from a re-analysis of the deposited data

How the results depend on the processing

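Members called higher and lower were 7 and 7. They were 4 and 5 without a trend, 15 and 19 at a fold change of 1.5, 1 and 2 among members of at least 3000 nt and 0 and 0 among the 4 tested of at least 5000 nt, where limma also gave 0 at an unadjusted p and limma-voom 0. Leaving out each sample gave 3 to 5 higher and 2 to 7 lower. Leaving out samples or shorter members leaves fewer to test, and why the counts changed was not tested. limma-voom called 10 higher and 6 lower, and on the implied totals 8 and 7. Without members that differ 4-fold inside a group 5 and 7 were called. Over all 17558 rows tested, the counts were 115 and 146 in the main fit and 92 and 84 without a trend. With limma-voom they were 108 and 87, and on the implied totals 97 and 129. With each sample left out they were 26 to 73 higher and 37 to 88 lower, among 17139 to 17207 rows.

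With the replicate block limma called 2 members higher and 0 lower, with 17 and 18 at an unadjusted p, and limma-voom with the replicate block called 6 and 1. Over all 17558 rows tested limma called 7 and 6 with the block, with 464 and 665 at an unadjusted p. There limma-voom with the block called 21 and 10. Deviations of samples with the same number correlated at -0.017, -0.014 and -0.032 over all rows and at -0.017, -0.14 and -0.17 over the members. Among the members Con 2 with HG/PA 3 (0.17) and Con 3 with HG/PA 2 (0.13) were highest. These values show no pairing by number, but with 3 samples a group they cannot tell whether same-numbered cultures were handled together. Why calls were lost under the block was not tested. NONRATT012014.2 and NONRATT004576.2 had an adjusted p of 0.0517 and 0.0634 in limma with it.

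The members' median log2 fold change of -0.016 was 0.11 with the median of ratios, 0.077 with quantile normalization, 0.075 with limma-voom and 0.073 with limma-voom and the replicate block. These scale to the listed lncRNAs, whose median shifts with them. It was -0.047 to -0.0051 with each sample left out. The share of fragments was higher in HG/PA by 0.302 percentage points on average, and between -0.957 and 1.33 with each sample left out.

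Uncalled members turned sign. NONRATT003468.2 (-0.14) became 0.078, 0.037 and 0.20 without Con 1, Con 2 or HG/PA 2 (range -0.53 to 0.20 over samples left out), NONRATT006688.2 (0.30) became -0.036 without Con 1 (-0.036 to 0.61), and NONRATT026286.2 (-0.043) became 0.053 with the median of ratios, 0.037 and 0.021 with limma-voom without and with the replicate block and 0.063 without Con 3 (-0.12 to 0.063). With limma-voom on the implied totals NONRATT003468.2 was at -0.60 ± 0.44 (adjusted p of 0.55 in that fit), farther from 0 than with any sample left out. The cause of these moves was not tested. No called member turned sign in these alternatives. NONRATT021337.2 and NONRATT013846.2 were called in each of the 17 other fits, and NONRATT016013.2 in 16.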

Other observations

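The nearest listed row of a called member was itself called in 2 of 14 cases, each in the member's direction, while 1.49% of all rows tested were called (0.655% higher and 0.832% lower). NONRATT015684.2, an unspliced lncRNA of 540 nt that lies 5345 bp from the falling member NONRATT015685.2, held 33, 21 and 31 fragments in Con against 5, 6 and 1 in HG/PA. All HG/PA samples were lower, with a log2 fold change of -2.85 ± 0.54 (SE) and a Benjamini-Hochberg adjusted p of 0.0483 in limma. NONRATT013847.2, a spliced lncRNA of 426 nt that lies 6634 bp from the rising member NONRATT013846.2, held 25, 25 and 33 fragments in Con against 78, 85 and 82 in HG/PA. Here all HG/PA samples were higher, with a log2 fold change of 1.53 ± 0.16 and an adjusted p of 0.00788 in limma.

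Beside the abundant member NONRATT003473.2, the unspliced NONRATT003472.2, 412 bp away, held 1914, 1521 and 1761 fragments in Con against 1119, 1154 and 1172 in HG/PA. Both were lower in every HG/PA sample, the neighbour with a log2 fold change of -0.61 and an adjusted p of 0.00975 in limma, short of 2-fold. The nearest rows of the other abundant members without an overlap were farther away. NONRATT012015.2, 33099 bp from NONRATT012014.2, was lower as well (-0.61, adjusted p of 0.0179 in limma). NONRATT004598.2, 6387 bp from NONRATT005732.2, and NONRATT004577.2, 44978 bp from NONRATT004576.2, did not follow the member, with log2 fold changes of 0.20 and -0.029 and adjusted p of 0.664 and 0.979 in limma. The tables hold no protein-coding genes, so whether such neighbours belong to a longer transcript was not tested.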
